A study of Homo sapiens with 6 samples.

Results

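The metallothionein genes were followed in HEK293T cells held in prometaphase. Members were taken by symbol: MT2A, MT1A, MT1E, MT1F, MT1G, MT1H, MT1M and MT1X, which gave 8 of the 37879 gene rows on each of 6 Illumina HumanWG-6 v3 arrays. HEK293T is a human cell line of embryonic kidney origin in which the SV40 large T antigen is made. Total RNA came from 3 samples transfected with an empty vector (control) and 3 transfected with a plasmid coding for Stau155-FLAG (Stau1), the tagged 55-kDa form of the RNA-binding protein Staufen1, driven by a Rous sarcoma virus promoter. Both groups received nocodazole (50 ng/ml, 15 h per the labels), a drug that blocks spindle assembly. The labels do not state whether replicates were separate cultures, so p-values measure the spread between these samples, which may be technical. The comparison asks whether transcript levels at this stage differ when Staufen1 is also made from a plasmid. The RNA is that of a whole culture, in which fewer cells with a transcript and less of it per cell cannot be told apart.

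Metallothioneins are small, cysteine-rich proteins that bind zinc, copper and, after exposure, cadmium, and so buffer free metal in the cell. Their genes lie together on chromosome 16 and are switched on by metals through MTF1, a zinc-finger transcription factor that binds metal response elements in their promoters. Some are also induced by oxidative stress and by glucocorticoids.

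In these cells the family was split between clear signal and none. MT2A, MT1A, MT1F and MT1X were brighter than every negative control probe on all 6 arrays, whereas MT1G, MT1H and MT1M passed the detection threshold on none and MT1E on 2. None of the 4 detected genes passed the test between the groups. The largest difference was that of MT1F, at -0.23 on the log2 scale (SE 0.13), with a 95% interval of -0.51 to 0.04.

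RefSeq promoter windows were held for 3 of the 8 genes, MT2A and MT1X from the detected set and MT1H from the undetected set. They are shown because the windows of a detected and an undetected gene can be read side by side for the same element. Each is the 250 bases before the RefSeq gene start in GRCh38.p14, 5′ to 3′, and capitals mark each copy of the core of a metal response element, searched as TGCACNC or TGCGCNC on either strand, which did not overlap one another.
MT2A, chr16:56608334-56608583, plus strand: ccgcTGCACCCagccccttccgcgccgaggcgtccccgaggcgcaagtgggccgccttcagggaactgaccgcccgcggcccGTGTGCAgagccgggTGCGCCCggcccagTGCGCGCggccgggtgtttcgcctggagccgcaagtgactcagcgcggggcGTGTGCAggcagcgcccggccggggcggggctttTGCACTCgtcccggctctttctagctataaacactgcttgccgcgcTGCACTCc
MT1X, chr16:56682220-56682469, plus strand: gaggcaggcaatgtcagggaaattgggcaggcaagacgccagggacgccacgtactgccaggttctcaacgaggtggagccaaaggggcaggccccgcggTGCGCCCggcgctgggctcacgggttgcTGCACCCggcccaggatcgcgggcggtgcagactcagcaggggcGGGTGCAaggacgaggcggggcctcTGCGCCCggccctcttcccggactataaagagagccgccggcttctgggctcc
MT1H, chr16:56669564-56669813, plus strand: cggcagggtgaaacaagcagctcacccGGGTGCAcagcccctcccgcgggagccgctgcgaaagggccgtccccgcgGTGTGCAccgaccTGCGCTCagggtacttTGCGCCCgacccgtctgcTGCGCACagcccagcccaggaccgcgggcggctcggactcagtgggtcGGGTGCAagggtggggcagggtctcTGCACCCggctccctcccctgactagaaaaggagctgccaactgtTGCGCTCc

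The MT2A window held 7 cores, 5 of them on the strand of the gene, from 246 bases to 8 bases before the start. MT1X held 4, the nearest beginning at position -53. MT1H held 8, the most of these windows, and its first and last lay at -223 and -8. A core began at -53 in MT1X and in MT1H, and at -54 in MT2A. Of 35116 RefSeq windows of the same length, 24.8% held at least 1 core. At least as many as MT1X were held by 0.370%, at least as many as MT2A by 0.0313% and at least as many as MT1H by 0.0171%. The MT1B and MT4 genes of the same cluster also had a window, with 3 cores each, a number reached by 1.58% of all windows. A core began at -53 in MT1B too, which was not detected on any array, while the nearest of MT4 began at -90. The count of cores did not order the genes by detection in these 5 windows, since MT1H, with the most, was not detected. A match to these letters is a description and not a bound site.

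**Figure D1:**
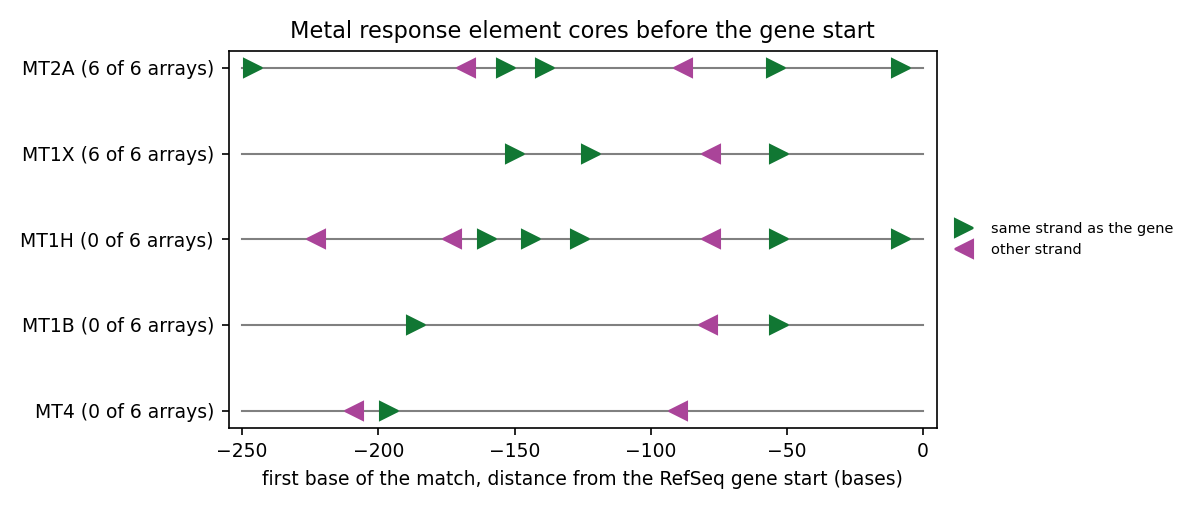
Distance of each metal response element core from the RefSeq gene start, in bases, with triangles pointing right for the strand of the gene and left for the other strand; labels give the number of arrays on which the gene was detected. MT2A and MT1X, detected on 6 arrays, had 7 and 4 cores, and MT1H, detected on 0, had 8.

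The deposited signal intensity is the brightness of a gene's beads on a linear scale, with no background taken off, and it is not comparable between genes. Beside it, a detection p gives the share of negative control probes at least as bright, and a gene was called detected where this was under 0.05. The background inferred for each array had a mean of 74.6 to 92.7 and an SD of 15.2 to 18.2.

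MT2A, the form most widely made across human tissues, gave intensities of 1262, 1186 and 1173 on the control arrays and 1138, 1269 and 1393 on the Stau1 arrays. Its highest and lowest values both lay in the Stau1 group, 1.22-fold apart, and the groups overlapped. The standard error over its 36 to 45 beads was at most 3.70% of the intensity. MT1A, a zinc and cadmium binding member, gave 2169, 2327 and 2450.1 in control and 2082, 2268 and 2365 in Stau1 cells. The highest was a control array and the lowest a Stau1 array, and the groups overlapped.

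MT1F gave 773, 994 and 1073 in control and 857, 864 and 855 in Stau1 cells. The 3 Stau1 arrays were nearly equal and lay inside the range of the control arrays, which spanned the whole 1.39-fold range of this gene. MT1X, which is known for its response to zinc and cadmium, gave 2536, 2760.1 and 3094 in control and 2697, 2921 and 2965 in Stau1 cells. Its Stau1 arrays also lay inside the control range. All 4 genes had a detection p of 0 on each of the 6 arrays.

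The other 4 genes lay near the background. MT1E gave 87.1, 83.1 and 94.6 in control and 86.8, 94.4 and 103 in Stau1 cells, and passed the threshold on Stau1 replicates 1 and 3 with detection p-values of 0.0281 and 0.0483. That row averages several probes, so its detection p is a combined value. MT1G, the only member on the minus strand, spanned 78.8 to 100.4 with a lowest detection p of 0.0751. MT1H spanned 85.2 to 110.2 with a lowest detection p of 0.0771, which is also a combined value, as its row averages several probes. MT1M was the dimmest against its background, with intensities of 57.4 to 87.3 and detection p-values of 0.588 to 0.966. Signal that was not above background sets no level, and no fold was computed for these 4 genes.

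**Figure D2:**
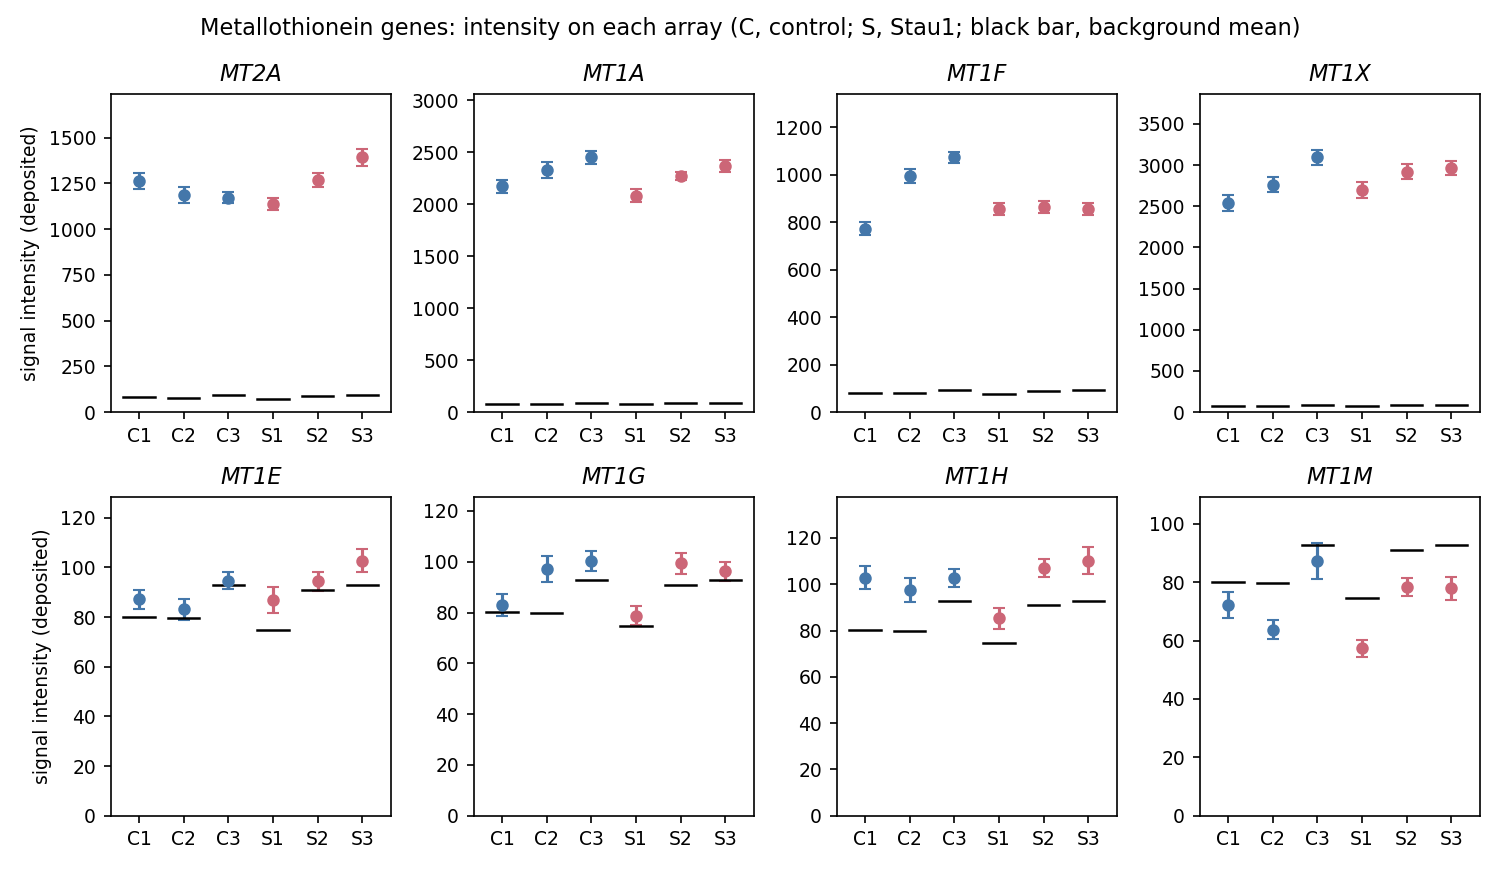
Deposited signal intensity of the 8 metallothionein genes on each array, with the standard error over beads; blue points are control and red points Stau1 arrays, and each black bar is the background mean of that array. MT2A, MT1A, MT1F and MT1X lie far above the bars, while MT1E, MT1G and MT1H lie near them and MT1M below them on all 6 arrays.

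In the RefSeq order along chromosome 16 the 4 detected genes did not lie next to one another. MT2A is followed by MT1L, MT1E, MT1M and MT1JP before MT1A, then come MT1B, MT1F, MT1G, MT1H and MT1X. MT4, known from stratified epithelium, and MT3, known from the brain, stand before MT2A and were not detected on any array, with lowest detection p-values of 0.393 and 0.588. MT1B, MT1L, MT1JP and MT1P2 were not detected on any array either. MTE, listed as a metallothionein with no chromosome in the table, was detected on all 6 at 221 to 249.8 and differed between the groups by -0.03 (SE 0.20, adjusted p = 0.999). Metallothionein transcripts are close in sequence, and how far the probe of 1 gene reads another gene's transcript was not tested.

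For the comparison, intensities were background-corrected, set to 1 common distribution on all arrays (quantile normalization) and taken to log2. A row was kept where it was detected on at least 3 of the 6 arrays, which held for 4 of the 8 metallothionein genes and for 13285 rows in all (35.1%). On that scale MT2A had 10.21 ± 0.42 in control and 10.19 ± 0.08 in Stau1 cells (mean ± SD, n = 3 each), a difference of -0.02 (SE 0.17). Its 95% interval ran from -0.38 to 0.34, which is 0.767-fold to 1.27-fold. MT1A had 11.19 ± 0.27 and 11.05 ± 0.06, a difference of -0.14 (SE 0.12) with an interval of -0.41 to 0.12. MT1X had 11.47 ± 0.20 and 11.42 ± 0.06, a difference of -0.05 (SE 0.11) with an interval of -0.28 to 0.18.

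MT1F had the largest difference of the 4 genes, 9.83 ± 0.18 against 9.59 ± 0.15, or -0.23 (SE 0.13). Its interval, -0.51 to 0.04, allows a Stau1 level from 0.704-fold to 1.03-fold of control. The unadjusted limma p was 0.0892 and the exact two-sided permutation p over the 6 arrays was 0.2, where 3 arrays against 3 allow no p below 0.1. For MT2A, MT1A and MT1X the exact permutation p-values were 1, 0.4 and 0.7.

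By limma with Benjamini-Hochberg adjustment over all kept rows, 0 of the 4 genes passed an adjusted p of 0.05 (0.999 for each), where 0% of all kept rows did. At an unadjusted p under 0.05 the count was also 0 of 4, against 3.73% of all kept rows (495). Without control replicate 3 that count was 2 of 4 (MT1A and MT1F), beside 1686 of the 13285 kept rows. MT1F alone passed without Stau1 replicate 1, where 395 of the kept rows did, and with array weights, where 1290 did. The groups overlapped for all 4 genes, while they did not overlap for 7.91% of the kept rows. Over the 4 genes the 95% intervals ran from 0.704-fold (MT1F) to 1.27-fold (MT2A) of control, and that of MT1X from 0.822-fold to 1.13-fold. Differences inside a gene's own interval are not excluded by these arrays. The median difference over the 4 genes was -0.0972, beside -0.00214 over all kept rows. All 4 lay below 0, as did 6727 of the 13285 kept rows. Arrays were also set only to a common median over all 37879 rows, or the deposited intensities were left as they were. The median of all kept rows was then itself 0.0679 and 0.0624. On those scales MT2A (0.0640 and 0.0658) and MT1X (0.0321 and 0.0362) lay above 0, while MT1A (-0.06 and -0.05) and MT1F (-0.15 and -0.13) stayed below. Against the median of all kept rows, all 4 genes were on the low side with quantile, cyclic loess and median scaling, and MT2A was 0.0033 above it unscaled.

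**Figure D3:**
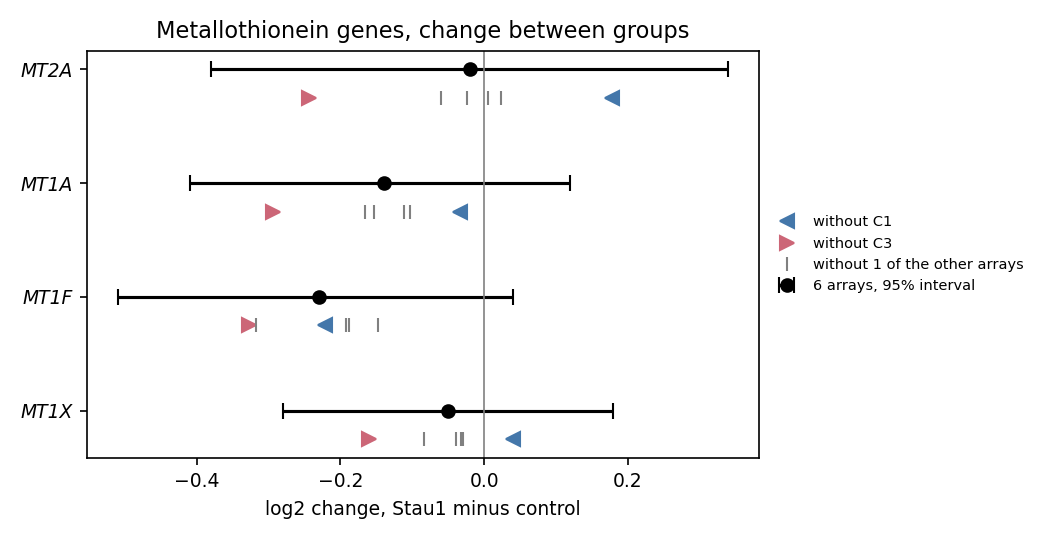
Log2 difference, Stau1 minus control, of the 4 detected metallothionein genes with its 95% interval (black, 6 arrays), and below each the difference without 1 array. All 4 intervals cross 0, and for MT2A, MT1A and MT1X leaving out control replicate 1 or control replicate 3 gives the highest and the lowest of the values shown.

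The differences of MT2A, MT1A and MT1X moved most with control replicates 1 and 3. Without control replicate 1 the difference of MT2A was 0.177, and without control replicate 3 it was -0.244. For MT1X the corresponding values were 0.0398 and -0.160, so both genes turned sign with the choice of array. MT1A and MT1F stayed below 0, with their lowest values without control replicate 3, -0.294 (adjusted p = 0.257) and -0.328 (adjusted p = 0.309). Over the kept rows control replicate 3 correlated with the Stau1 arrays at Pearson's r of 0.995 to 0.996, and with control replicates 1 and 2 at 0.987 and 0.992.

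The scaling between arrays changed the values of single arrays and the differences between the groups. For MT2A and MT1X the difference went from 0.07 and 0.04 unscaled to -0.02 and -0.05 after quantile normalization. For MT1A and MT1F it went from -0.05 and -0.13 to -0.14 and -0.23. In the deposited intensities MT2A was among the steadiest rows: its range over the 6 arrays was 0.29 on the log2 scale, and 5.22% of the kept rows had a smaller one. After quantile normalization its range was 0.84, and 93.2% of the kept rows had a smaller one, beside a median range of 0.44. The normalized values were 10.61, 10.27 and 9.77 in control and 10.20, 10.11 and 10.27 in Stau1 cells, so that control replicates 1 and 3 became the extremes. MT1A went from a range of 0.23 to 0.52 and MT1X from 0.29 to 0.40. MT1F did not follow, with 0.47 before and 0.49 after.

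The size of the step can be read per array. Normalization lifted the 4 genes by 0.37 to 0.38 on control replicate 1 and lowered them on control replicate 3 by a shift of -0.33 to -0.31. On the other 4 arrays the shift lay between -0.12 and 0.14. The arrays differed in overall brightness: the 75th percentile of the intensity over the kept rows was 726, 846 and 1159 on the control arrays and 849, 1011 and 996 on the Stau1 arrays. From control replicate 1 to control replicate 3 this percentile went from 726 to 1159, while MT2A went from 1262 to 1173 and MT1A from 2169 to 2450.1. Cyclic loess, another normalization, gave MT2A a range of 0.82, and scaling to a common median gave 0.31, beside 0.29 unscaled. That median was taken over all 37879 rows, of which 35.1% were kept. In the deposited intensities it was 83.0 to 102 per array, near the background means of 74.6 to 92.7. Which of these scalings comes closer to the level in the cells was not tested.

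**Figure D4:**
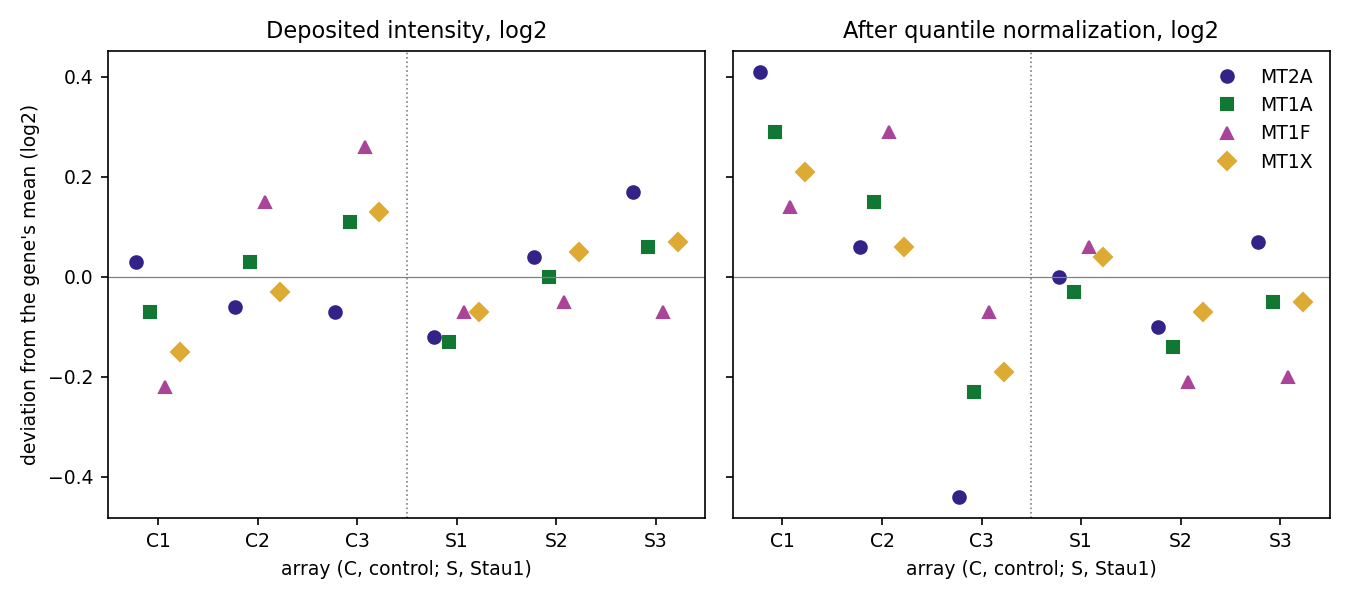
Deviation of each detected metallothionein gene from its own mean over the 6 arrays, on the log2 scale, before (left) and after (right) quantile normalization. MT2A spans 0.29 on the left and 0.84 on the right, where control replicates 1 and 3 are its highest and lowest arrays.

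For pairs with MT2A, how far the detected genes moved together also turned on this step. After normalization Pearson's r over the 6 arrays was 0.94 between MT2A and MT1X, 0.91 between MT2A and MT1A and 0.96 between MT1A and MT1X, with Spearman's rho of 0.83, 0.83 and 1. MT1F was less like the rest, with r of 0.42 to 0.74. In the deposited intensities r between MT2A and MT1X was 0.17 and between MT2A and MT1A 0.28, and MT2A with MT1F was -0.45. The pairs without MT2A moved less: r was 0.80 between MT1A and MT1X, 0.71 between MT1A and MT1F and 0.67 between MT1F and MT1X, beside 0.96, 0.74 and 0.65 after normalization. Without control replicates 1 and 3, over the 4 arrays left, normalized r was 0.46 between MT2A and MT1X and 0.69 between MT2A and MT1A. The pairs without MT2A had 0.85 (MT1A with MT1X), 0.93 (MT1A with MT1F) and 0.96 (MT1F with MT1X) on those 4 arrays. These genes share arrays and the shift just described, and the values are descriptions.

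The rows most like MT2A over the 6 normalized arrays were TMEM120B (r = 0.998), LOC731985 (0.993), FBXW8 (0.992), COL2A1 (0.991) and MANSC1 (0.986). These r values hold for the normalized scale, and r in the deposited intensities was not computed for these rows. TMEM120B gave intensities of 130 to 159 and COL2A1, a collagen chain gene of cartilage, 246 to 310.1. In the deposited intensities, from control replicate 1 to control replicate 3, MT2A went from 1262 to 1173 and COL2A1 from 279 to 274. LOC731985 went from 9207.5 to 10747, MANSC1 from 385 to 461, FBXW8 from 149 to 167 and TMEM120B from 143 to 146. Of 13278 rows outside the family, 297 (2.24%) had a normalized r above 0.9 to MT2A, so a high r over 6 arrays does not single out a partner. Chromosome 12 held 4 of these 5 rows, 6.40% of the 297 and 4.70% of all rows compared.

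The genes that sense and move metals showed no called difference. MTF1, the factor that binds metal response elements, gave intensities of 249, 292 and 448 in control and 326, 388 and 395 in Stau1 cells. After normalization it differed by 0.18 (SE 0.14, adjusted p = 0.999), and the groups overlapped. SLC30A1, the zinc exporter of the cell surface and itself a known MTF1 target, gave 181, 219.7 and 309 in control and 219, 267 and 243 in Stau1 cells, a difference of 0.01 (SE 0.15).

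Of 38 measured zinc and copper handling genes, 30 were kept and 0 passed the adjusted threshold in either direction, with a median difference of -0.0455. Among the 10 kept zinc importers 9 lay below 0 (median -0.16), where 50.6% of all kept rows did. With median scaling 30.6% of all kept rows lay below 0, and 8 of the 10 importers did. None of them was called. SLC39A8, an importer of zinc and manganese, had the largest of these at -0.31 (SE 0.15, unadjusted p = 0.0540), and its groups overlapped. The 6 kept zinc exporters had a median of -0.01 and the 13 genes of copper transport 0.01. COX19, a copper protein of the mitochondrial intermembrane space, differed by 0.32 (SE 0.15, limma adjusted p = 0.999) and its groups did not overlap after normalization. Its deposited intensities did overlap, at 200 to 304 in control and 267 to 310.5 in Stau1 cells.

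Genes induced by metal or oxidative stress were not called either: 14 of 17 were kept and 0 passed. SLC7A11, the cystine transporter, differed by -0.37 (SE 0.14, limma adjusted p = 0.999), the only row of these lists with an unadjusted limma p under 0.05. It was detected on the 3 control arrays and on none of the Stau1 arrays, at intensities of 104 to 134 and 86.8 to 117, so it was kept only through the group in which it was higher. The 4 kept heat shock genes lay above 0, as did 49.4% of all kept rows (69.4% with median scaling and 74.3% unscaled, where the 4 also lay above 0), HSPA1B at 0.15 (SE 0.08, adjusted p = 0.999). Of the 10 kept NRF2 and haem targets 3 lay above 0, and 6 with median scaling and unscaled. HMOX1, which degrades haem, differed by -0.20 (SE 0.14).

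Glucocorticoid targets were read because the steroid also acts on metallothionein promoters. Of 9 measured, 6 were kept and 0 called. TSC22D3 differed by -0.21 (SE 0.11), with groups that did not overlap after normalization, and KLF9 by -0.18 (SE 0.11). The deposited intensities of TSC22D3 did overlap, at 753 to 1103 in control and 740 to 934 in Stau1 cells. Among genes beside the cluster on chromosome 16, 7 of 9 were kept and 0 called, with HERPUD1 at -0.19 (SE 0.15). Over these 4 lists together the normalized values of the groups did not overlap for 7 of 57 kept genes (12.3%), beside the 7.91% of all kept rows given above.

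**Figure D5:**
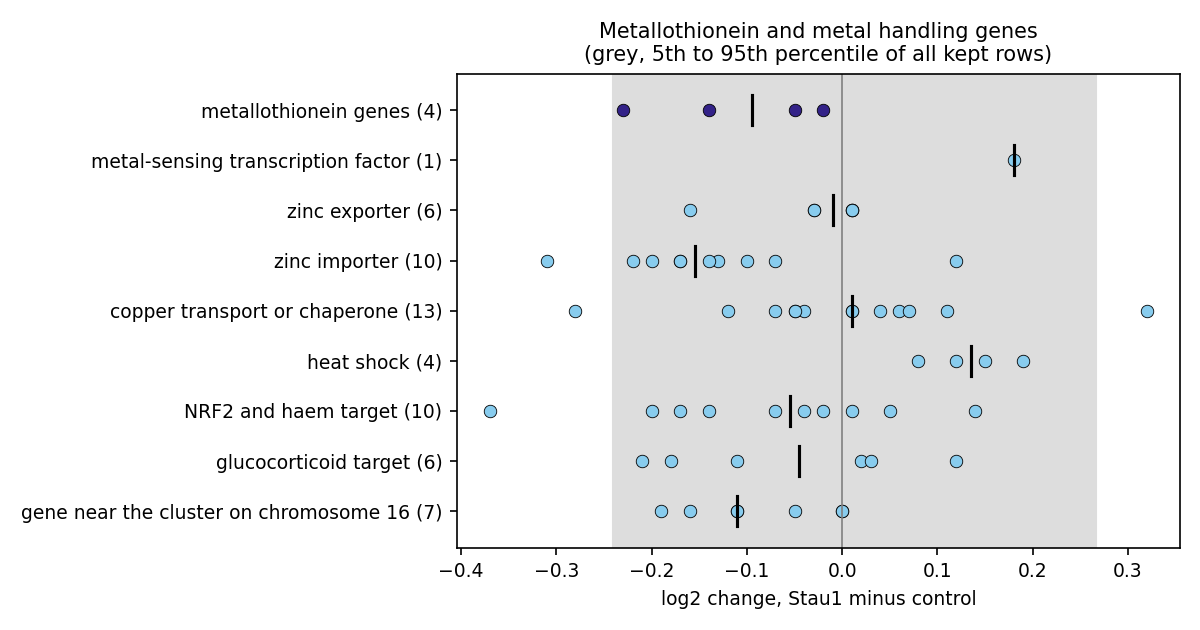
Log2 difference, Stau1 minus control, of the detected metallothionein genes and of each group of metal handling, stress, glucocorticoid and neighbouring genes; each point is 1 gene, the black bar its group's median, and the number kept is in brackets. The grey band runs from -0.24 to 0.27, and all 4 metallothionein genes lie inside it.

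After normalization STAU1 itself, whose row averages several probes, had 11.32 ± 0.10 in control and 11.47 ± 0.06 in Stau1 cells. The difference was 0.15 (SE 0.09, limma adjusted p = 0.999, exact permutation p = 0.1), and on that scale the groups did not overlap. In the deposited intensities they did overlap, with 1890, 2526.5 and 3368 in control and 2577, 3236 and 3153 in Stau1 cells. Whether the probes read the plasmid's transcript was not tested. Of the marker genes of HEK293T, NEFL, NEFM, SIX4 and LIN28B were detected on all arrays and PAX2 was not. Of the markers of other cells, none of 3 keratinocyte genes was detected on any array, of 5 fibroblast genes only COL1A1, of 4 blood genes only LYZ and of 3 colon genes CDX2 on all arrays and KRT20 on 1. Between 12730 and 13469 rows per array were detected, with a median of 40 to 41 beads per row.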

How the data were processed

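Total RNA of 6 samples, grouped by the transfection in their labels, was measured on 6 bead arrays. Per the file headers, the deposited signal intensity is a gene profile from BeadStudio with no normalization, so a row is the mean over a gene's probes; the detection p-value, the bead standard error (in intensity units) and the number of beads were deposited beside it. Every column of values could be tied to its sample. The study's methods state a robust spline normalization, a variance stabilization, background correction by negative controls and a t-test for comparing immunoprecipitates, which are not part of the deposited intensities.

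With limma 3.58.1 in R 4.3.3, background was corrected by normexp with an offset of 16, its mean and SD inferred from the detection p-values of the 30932 rows of 1 probe (p in whole steps of 1 in 759, tolerance 0.002 steps). Quantile normalization and log2 followed. A row was kept if its detection p was under 0.05 on 3 arrays or more. Groups were compared with lmFit and eBayes with a variance trend, adjusted by Benjamini-Hochberg over all kept rows. The fit was tested on simulated data.

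The metallothionein genes and all gene lists were chosen with earlier results of these data known. Named were all 8 members, STAU1, the 2 kept rows of lowest unadjusted p in each list and the 5 rows most like MT2A; MTF1, SLC30A1, HMOX1, SNORD13 and the undetected metallothioneins outside the 8 were named after their values were seen. Some genes that these rules or the marker lists hold are not reported here. Symbols, gene order and promoters came from RefSeq tables (promoters GRCh38.p14). Figures were drawn with matplotlib 3.10.9. The precision is limited by the number of arrays, 3 per group.

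Alternatives were no background correction, background from all rows, an offset of 50, cyclic loess, median scaling, a generalised log, array weights, no filter, no variance trend, a stricter filter (detection p under 0.01 on each array), a replicate block, the methods' t-test and leaving out each array. Unscaled intensities, and all alternatives for the correlation, were added after the data were seen.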

Additional observations from a re-analysis of the deposited data

How the results depend on the processing

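No metallothionein gene passed an adjusted p of 0.05 under any of the 13 alternatives on all arrays or without any 1 array; the lowest adjusted p was 0.257, for MT1A without control replicate 3, and over all alternatives these adjusted p-values reached 1. The count of metal handling and stress genes called was 0 in each as well (lowest adjusted p 0.282). With a replicate block the count of metallothionein genes called was 0; same-numbered arrays correlated in their deviations at 0.0154, 0.259 and -0.139, so replicate numbers were not taken to pair samples, and the block changed no call. Over all kept rows 0 to 39 were called when 1 array was left out, the 39 without control replicate 3. In unscaled intensities 1 (SNORD13) was called. Under the alternatives on all arrays between 46 (unscaled) and 1290 (array weights) of the kept rows had an unadjusted p under 0.05. With no filter 1566 of all 37879 rows did. The difference of MT2A turned sign with median scaling (0.0640), unscaled (0.0658) and with array weights (0.0356); leaving out 1 array gave -0.244 to 0.177. That of MT1X turned with median scaling (0.0321) and unscaled (0.0362), and spanned -0.160 to 0.0398 when 1 array was dropped. The correlation of MT2A with MT1X was 0.167 unscaled and -0.142 with median scaling, and 0.873 to 0.987 with 1 array left out. Median scaling moved the median of all kept rows to 0.0679. The median over the 4 genes stayed between -0.120 and -0.00643 on all arrays and between -0.269 and 0.00329 with 1 left out. Signal over background limits MT1E, MT1G, MT1H and MT1M to a statement on detection.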
